A study of Rattus norvegicus with 4 samples.

Results

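The small heat shock proteins are a family of chaperones that share the alpha-crystallin domain, and Bag3 is the co-chaperone that links them to HSP70. The 8 genes described here were taken by symbol, as the 7 small heat shock protein genes Cryab, Hspb1, Hspb2, Hspb3, Hspb6, Hspb7 and Hspb8 together with Bag3, and each of the 8 was found once among the 15731 genes listed. They were measured in neonatal cardiomyocytes, the heart muscle cells of newborn animals, from the ventricles of wild-type Wistar rats at postnatal day 1, given as day 0 in the isolation protocol. All cultures received a synthetic mimic of 1 miRNA by lipid transfection, and the 4 cultures differed in which one. The first received hsa-miR-106b-5p, the second hsa-miR-93-5p, the next hsa-miR-25-3p, and the control culture the worm miRNA cel-miR-67. RNA was collected 72 h later. The labels give the mimic dose as 25 nM in the treatment protocol and as 25 mM in the extraction protocol. Each mimic has 1 library, so no difference below has a replicate check and no test between mimics was possible.

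Small heat shock proteins bind partly unfolded proteins without using ATP and hold them until ATP-driven chaperones of the HSP70 family can refold them or pass them on for degradation. In striated muscle they sit on desmin filaments, actin and the Z-disc, where mechanical load unfolds proteins continuously. Bag3 binds HSP70 through its BAG domain and small heat shock proteins through short motifs, and together with Hspb8 and the ubiquitin ligase CHIP it sends damaged filamin to autophagosomes, a route called chaperone-assisted selective autophagy. Mutations in CRYAB, HSPB8 or BAG3 cause muscle or heart muscle disease in humans.

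The mimics carry 2 different seeds, the bases 2 to 8 by which a miRNA pairs with its targets. The rat sequences of the same names, credited to RefSeq on build GRCr8, are shown because the 8 genes are compared by mimic below, and capitals mark the seed. They lie on the minus strand at chr12:22157103-22157123, chr12:22156894-22156916 and chr12:22156652-22156673 in the order printed.
rno-miR-106b-5p: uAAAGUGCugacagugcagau
rno-miR-93-5p: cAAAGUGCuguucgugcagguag
rno-miR-25-3p: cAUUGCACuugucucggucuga
The miR-106b and miR-93 sequences share the seed AAAGUGC, and miR-25 has the seed AUUGCAC. Sites for these seeds in the transcripts of the 8 genes were not analysed here.

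Many heat shock genes carry heat shock elements, inverted repeats of the unit GAA to which heat shock factor 1 binds. The promoter table of RefSeq, with 250 bases before and 50 after the gene's start, held 6 of the 8 genes, and Cryab and Hspb2 were not among them. A pair of facing units, written GAANNTTC, was found in the promoters of Hspb1, Hspb6, Hspb8 and Bag3, and in 8.59% of all 33469 promoters of the table. The opposite arrangement TTCNNGAA, which can share a unit with the first, was found in Hspb6 and in 8.77% of all promoters. Both motifs read the same on either strand. No promoter of these genes held 3 alternating units in a row, which 0.798% of all promoters did, and neither arrangement occurred in the windows of Hspb3 and Hspb7. The windows of 60 bases around the matches that these 4 genes share are shown, with the match in capitals, in the direction of the gene and on build GRCr8.
Bag3, chr1:192533302-192533361, plus strand: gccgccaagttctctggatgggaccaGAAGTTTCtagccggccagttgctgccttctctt
Hspb6, chr1:94934197-94934256, plus strand: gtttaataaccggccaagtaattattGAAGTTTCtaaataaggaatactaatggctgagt
Hspb8, chr12:45837259-45837318, plus strand: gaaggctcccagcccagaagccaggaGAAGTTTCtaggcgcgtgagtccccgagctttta
Hspb1, chr12:26432397-26432456, minus strand: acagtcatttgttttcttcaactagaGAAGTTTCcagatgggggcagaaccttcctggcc
The match begins 132 bases before the start of Bag3, 149 before Hspb6, 23 before Hspb8 and 129 before Hspb1, and all 4 read GAAGTTTC. Hspb1 has another match, GAACCTTC, 109 bases before its start. A match in a window is a description of its letters and not a measured binding site.

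Values are RPKM as deposited by the authors, the reads on a gene per 1000 bases of its gene model and per 1000000 of a library size. These library sizes stood in scaled proportions, described with the processing below. The whole reads behind the RPKM values were recovered, and reads on all listed genes numbered from 15175185 with cel-miR-67 to 18797234 after miR-106b. A fold change is the ratio of RPKM of a mimic over cel-miR-67, or over another mimic where stated. Each comes with a 95% exact (Clopper-Pearson) interval from the recovered reads of the 2 libraries, which covers counting error only and not the spread between cultures. Genes past 1.3-fold were counted as higher or lower among those with RPKM above 1.0 in both libraries, and all 8 genes met this filter in every comparison. The 3 comparisons with cel-miR-67 share that control library.

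In the control library the 8 genes covered a wide range of levels. Cryab was at 879.6 RPKM, rank 33 among the listed genes, Hspb2 at 198, Hspb1 at 148 and Hspb3 at 133. Lower down followed Hspb7 at 73.2, Hspb6 at 54.3, Hspb8 at 53.2 and Bag3 at 6.91, with Bag3 at rank 6382. Within this order, the counting intervals of Hspb6 and Hspb8 overlapped and those of the other neighbours did not. Cryab alone made up 57.1% of the 1539 RPKM summed over the 7 small heat shock protein genes, and 99.8% of listed genes had a lower level than Cryab. The order changed after each mimic. Hspb6 dropped below Hspb8 with all 3 mimics, Hspb7 stood above Hspb3 after miR-93, and after miR-25 Hspb7 and Hspb8 came next to each other with overlapping intervals. These levels depend on the length of each gene model, which was 549 bases for Hspb2, the shortest of the 8, and 2425 for Bag3.

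**Figure D1:**
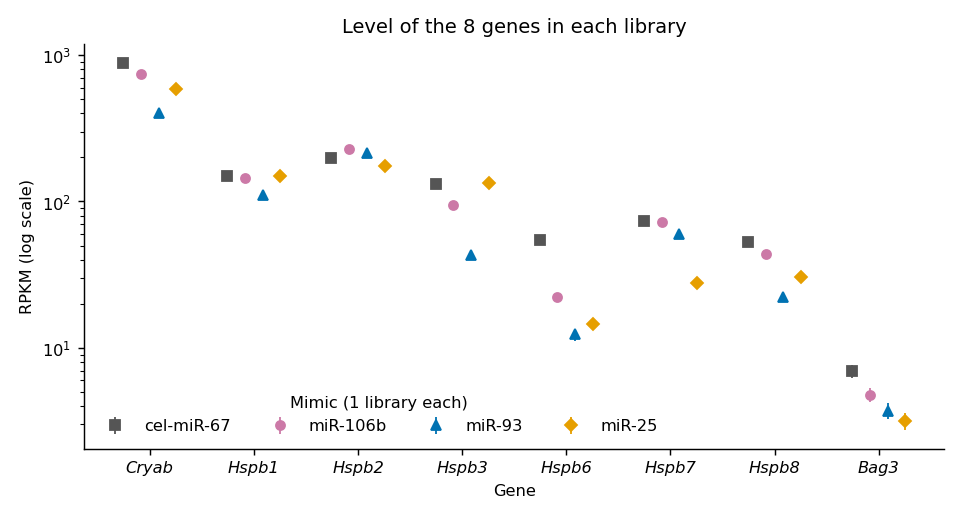
RPKM on a log axis (y) of the 8 genes (x) in the 4 libraries, 1 point per library, with bars for the 95% exact Poisson interval of the reads, which is often smaller than the point. Cryab is highest in every library, from 404 to 879.6 RPKM, Bag3 lowest, from 3.15 to 6.91, and Hspb6 shows the widest gap between control and mimics.

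Summed over the 7 small heat shock protein genes, the level was 1539 RPKM in the control library, 1351 after miR-106b, 865 after miR-93 and 1120 after miR-25. This is 87.7%, 56.2% and 72.8% of the control. Most of the loss was in Cryab, whose share of the sum went to 46.7% after miR-93, while the sum without Cryab was 660 RPKM in the control, 605 after miR-106b, 461 after miR-93 and 531 after miR-25. The sum was thus lower in all 3 libraries, least after miR-106b and most after miR-93. Cryab weighs most in it, and not every gene was lower with each mimic. Relative to the cardiomyocyte markers, given below, the order of the libraries was different.

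No member was higher past 1.3-fold with any mimic. With miR-106b, 3 of the 8 genes were lower past 1.3-fold, Hspb3, Hspb6 and Bag3, against 12.7% of the 11296 genes tested, and 11.9% were higher. With miR-93, 6 of 8 were lower, namely Hspb1, Hspb3, Hspb6, Hspb8, Cryab and Bag3, against 15.6% lower and 15.1% higher of 11280 genes. With miR-25, 5 of 8 were lower, namely Hspb6, Hspb7, Hspb8, Cryab and Bag3, against 22.6% lower and 19.3% higher of 11198 genes. The median log2 fold change of the 8 genes was -0.26 after miR-106b, -1.01 after miR-93 and -0.69 after miR-25, where the medians over all tested genes were -0.0033, -0.0018 and -0.012.

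**Figure D2:**
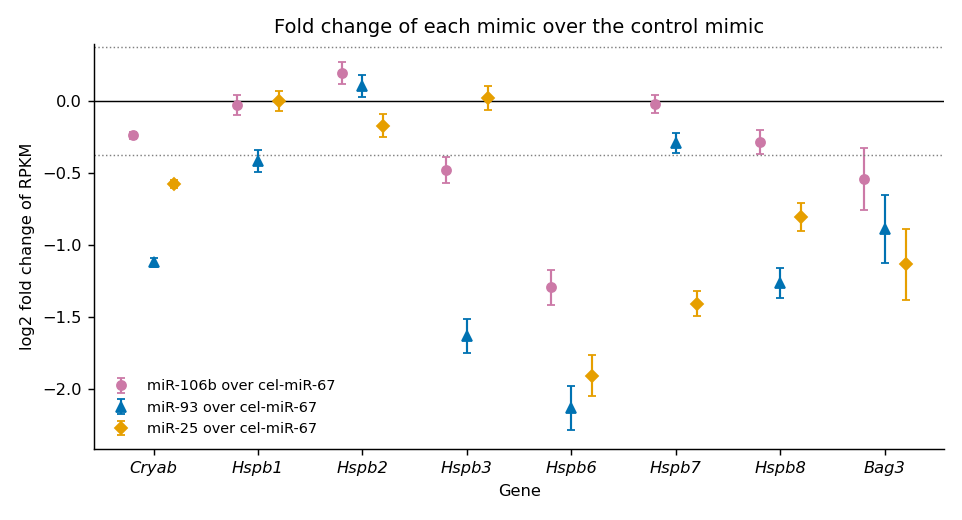
log2 fold change of RPKM over cel-miR-67 (y) for the 8 genes (x) and 3 mimics, with 95% exact counting intervals as bars and dotted lines at 1.3-fold. Hspb6 and Bag3 lie below the lower dotted line after each mimic, Hspb2 lies between the dotted lines after each mimic, and Hspb3 and Hspb7 are far below the lower line with 1 mimic each, miR-93 and miR-25.

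The decrease of these genes after miR-25 went together with a lower level of cardiomyocyte markers and of most fibroblast markers. Of 12 cardiomyocyte marker genes, 11 were listed, all with RPKM above 1 in every library, and their summed level was 17142 RPKM in the control, 16336 after miR-106b, 13687 after miR-93 and 8945 after miR-25. Their median log2 fold change was -0.06 after miR-106b, -0.22 after miR-93 and -0.98 after miR-25, where all 11 were lower past 1.3-fold, from Pln at -0.42 to Tnni3 at -4.47. Of 6 smooth muscle markers, 4 were higher past 1.3-fold after miR-25, Smtn was lower at -0.46 and Mylk was within at 0.27. Their summed level was 2064 RPKM after miR-25, most of it from Tagln at 1306, Acta2 at 440.2 and Cnn1 at 278, and between 599 and 757 in the other libraries. The 10 fibroblast markers summed to between 349 after miR-25 and 846 in the control. With miR-25, 7 of 9 tested fibroblast markers were lower past 1.3-fold and 1 was higher, at a median log2 fold change of -0.79. Of all tested genes, 22.6% were lower and 19.3% higher with this mimic. Of the 9 fibroblast markers, 5 were lower after miR-106b, at a median of -0.39, and 4 after miR-93, at -0.10, with none higher. The shares of all tested genes that were lower were 12.7% after miR-106b and 15.6% after miR-93. Endothelial and macrophage markers stayed at or below 8.56 and 20.8 RPKM in sum, with Pecam1 not listed and no found marker of these lists at 0. In bulk RNA, fewer cells of a type and less RNA per cell cannot be told apart, and the part of cell makeup in the results was not tested.

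The members were also counted relative to the median cardiomyocyte marker, which was decided after seeing the data and adds the same amount to every gene of a comparison, 0.06 after miR-106b, 0.22 after miR-93 and 0.98 after miR-25. Past 1.3-fold, 3 members were then lower after miR-106b and 5 after miR-93, with none higher, against 9.94% lower and 15.3% higher of all tested genes for miR-106b, and 7.96% lower and 32.3% higher for miR-93. After miR-25 the same shift put 86.7% of all tested genes higher and 2.25% lower, so the members are read against those shares. Hspb6 at -0.93 and Hspb7 at -0.43 were lower, 4 members were higher, namely Hspb3 at 1.00, Hspb1 at 0.98, Hspb2 at 0.81 and Cryab at 0.40, and Hspb8 at 0.17 and Bag3 at -0.16 were within 1.3-fold. The sum over the 7 small heat shock protein genes was 8.98% of the summed cardiomyocyte markers in the control library, 8.27% after miR-106b, 6.32% after miR-93 and 12.5% after miR-25, a measure in which the scaling between libraries does not enter.

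Hspb6 (ENSRNOG00000020922), also called Hsp20, is a substrate of the cyclic nucleotide-dependent kinases in muscle and protects heart muscle cells from ischaemia. Its level was 54.3 RPKM in the control library, 22.1 after miR-106b, 12.4 after miR-93 and 14.5 after miR-25, from 1612, 861, 442 and 516 reads. The control stood above every mimic library, at log2 values of -1.30 (-1.42 to -1.18) for miR-106b, -2.14 (-2.29 to -1.98) for miR-93 and -1.91 (-2.05 to -1.76) for miR-25. These are decreases to 40.7%, 22.8% and 26.6% of the control. Hspb6 was near the bottom of all tested genes in each comparison, with 57, 31 and 45 genes further down. In RefSeq's annotation, made on another build, the span of Hspb6 overlaps that of Lin37, and since no strand setting of the counting was given, reads in the shared stretch cannot be assigned to either gene.

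Cryab (ENSRNOG00000010524) encodes alpha-B-crystallin, which binds desmin and titin and is the most abundant small heat shock protein of the heart. It was at 879.6 RPKM in the control, 745 after miR-106b, 404 after miR-93 and 589 after miR-25, from between 13773 and 27676 reads. The log2 fold change was -0.24 after miR-106b (-0.26 to -0.21), within 1.3-fold, -1.12 after miR-93 (-1.15 to -1.09) and -0.58 after miR-25 (-0.61 to -0.55). Only the libraries of miR-93 and miR-25 were therefore past the cutoff, and relative to the cardiomyocyte markers the miR-25 value changed sign. With miR-93, 1.94% of tested genes were lower still.

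Hspb2 (ENSRNOG00000010402), which lies next to Cryab in the genome, was the member whose largest change over the 3 comparisons was smallest, while Hspb1 was nearer to the control after miR-106b and miR-25. Its RPKM was 198 in the control, 227 after miR-106b, 213 after miR-93 and 176 after miR-25. All 3 log2 fold changes were within 1.3-fold, at 0.19 (0.12 to 0.27), 0.11 (0.03 to 0.18) and -0.17 (-0.25 to -0.09). The ratio of Cryab to Hspb2 within a library was 4.44 in the control (4.26 to 4.63), 3.29 after miR-106b (3.18 to 3.40), 1.90 after miR-93 (1.82 to 1.97) and 3.35 after miR-25 (3.22 to 3.49), so the neighbours changed unequally. The spans of both genes overlap in RefSeq's annotation of the other build, and how the counting treated reads in the overlap is not given in the sources used here.

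Hspb3 (ENSRNOG00000010992) forms a complex with Hspb2 in muscle. It had an RPKM of 133 in the control, 95.1 after miR-106b, 42.8 after miR-93 and 134 after miR-25. At the deposited scaling the control and miR-25 libraries were alike within counting error, at a log2 fold change of 0.019 (-0.06 to 0.10). Scaled to the reads on listed genes, that value was 0.17. The libraries of both mimics with the AAAGUGC seed were lower. With miR-106b the change was -0.48 (-0.57 to -0.39), and after miR-93 it was -1.63 (-1.75 to -1.52), a decrease to 32.3% of the control.

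Hspb7 (ENSRNOG00000029079), a member found mainly in heart and skeletal muscle that binds filamin C, had the opposite pattern. It stood at 73.2 RPKM in the control, 72.2 after miR-106b, 59.7 after miR-93 and 27.6 after miR-25. The log2 fold changes after miR-106b and miR-93 were -0.021 (-0.09 to 0.05) and -0.29 (-0.36 to -0.22), within 1.3-fold. With miR-25 it was -1.41 (-1.50 to -1.32), a decrease to 37.7% of the control, and 1.93% of tested genes were lower.

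Hspb1 (ENSRNOG00000023546), or Hsp27, regulates actin filaments and is phosphorylated in the p38 stress kinase pathway. Its RPKM was 148 in the control, 145 after miR-106b, 111 after miR-93 and 149 after miR-25. Among these libraries miR-93 alone was lower past the cutoff, at -0.42 (-0.50 to -0.34), and the values after miR-106b, -0.03 (-0.10 to 0.04), and miR-25, 0.0011 (-0.07 to 0.07), were within counting error of the control. The call after miR-93 depended on scaling, since the log2 fold change was -0.27 when libraries were scaled to the reads on listed genes. With that scaling the values after miR-106b and miR-25 were 0.053 and 0.15, outside the intervals given above.

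Hspb8 (ENSRNOG00000022392), or Hsp22, and Bag3 (ENSRNOG00000020298) act in one complex. Hspb8 was at 53.2 RPKM in the control, 43.7 after miR-106b, 22.1 after miR-93 and 30.5 after miR-25, at log2 values over the control of -0.28 (-0.37 to -0.20), -1.27 (-1.37 to -1.16) and -0.81 (-0.90 to -0.71). Bag3 was the scarcest member, at 6.91 RPKM in the control, 4.75 after miR-106b, 3.73 after miR-93 and 3.15 after miR-25, from 380, 343, 247 and 208 reads. It was lower after each mimic past 1.3-fold, by log2 values of -0.54 (-0.75 to -0.33), -0.89 (-1.13 to -0.66) and -1.13 (-1.39 to -0.89). Hspb8 was lowest after miR-93 and Bag3 after miR-25. The ratio of Hspb8 to Bag3 within a library was 7.70 in the control (6.90 to 8.61), 9.19 after miR-106b (8.20 to 10.3), 5.94 after miR-93 (5.16 to 6.84) and 9.68 after miR-25 (8.37 to 11.2). The intervals after miR-106b and miR-25 overlapped that of the control, while the miR-93 interval lay below it.

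**Figure D3:**
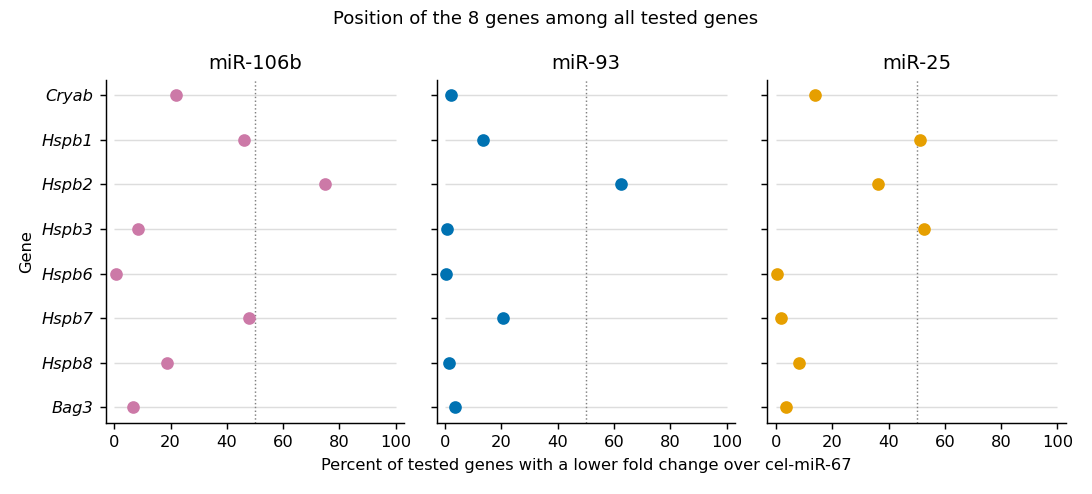
Percent of all tested genes whose fold change over cel-miR-67 was lower (x, 1 panel per mimic) for each of the 8 genes (y), with a dotted line at the middle gene. Hspb6 lies at 0.505 percent after miR-106b, 0.275 after miR-93 and 0.402 after miR-25, and only Hspb2 after miR-106b and miR-93, and Hspb1 and Hspb3 after miR-25, lie right of the line.

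Compared directly, without the control library, the miR-93 culture had less of all 8 transcripts than the miR-106b culture, which received the same seed. The log2 fold change of miR-93 over miR-106b ran from -0.09 for Hspb2 (-0.16 to -0.02) to -1.15 for Hspb3 (-1.27 to -1.04), and every interval lay below 0. The Hspb2 value depended on scaling and was -0.025 when libraries were scaled to the reads on listed genes. Relative to the median cardiomyocyte marker, itself at -0.16 in this comparison, Hspb2 was at 0.076. Hspb8 at -0.98, Cryab at -0.88 and Hspb6 at -0.84 were also far below 0, with a median of -0.61 over the 8 genes and of 0.0030 over the 11391 genes tested. For Hspb3, 60 tested genes were lower still. The control library does not enter this comparison.

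The miR-25 culture differed from the miR-93 culture mainly in Hspb3 and Hspb7. Over miR-93, miR-25 was higher for Hspb3 by 1.65 (1.54 to 1.77), Cryab by 0.54 (0.51 to 0.58), Hspb8 by 0.46 (0.35 to 0.58) and Hspb1 by 0.42 (0.35 to 0.49), and lower for Hspb7, at -1.11 (-1.20 to -1.03). For Bag3 the value was -0.24 (-0.52 to 0.03), so no difference was detectable at this depth, and counting error allows up to -0.52. Over miR-106b, miR-25 was higher for Hspb3 by 0.50 (0.41 to 0.58) and lower for Hspb7, at -1.39 (-1.47 to -1.30), Hspb6, at -0.61, Bag3, at -0.60, and Hspb8, at -0.52. Lower and upper quartiles of tested genes were -0.34 and 0.33 over miR-106b, -0.34 and 0.32 over miR-93. Over miR-106b, 83.8% of tested genes were lower than Hspb3, 2.95% than Hspb7, 13.5% than Hspb6, 14.1% than Bag3 and 16.6% than Hspb8. Over miR-93 these shares were 98.8% for Hspb3, 85.4% for Cryab, 82.1% for Hspb8, 80.1% for Hspb1 and 4.58% for Hspb7. Relative to the median cardiomyocyte marker, Hspb6, Bag3 and Hspb8 over miR-106b changed sign, to 0.045, 0.062 and 0.14.

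**Figure D4:**
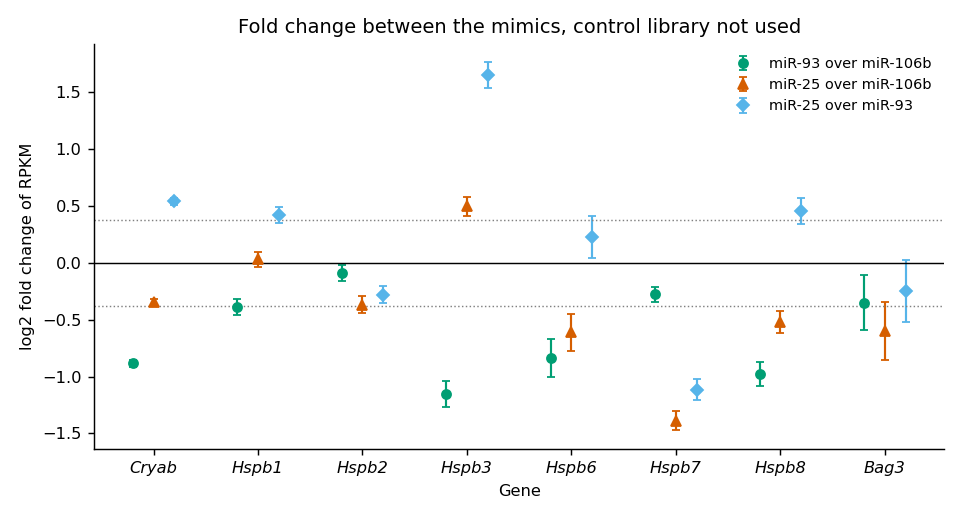
log2 fold change of RPKM between mimics (y) for the 8 genes (x), with 95% exact counting intervals as bars and dotted lines at 1.3-fold. All 8 points of miR-93 over miR-106b lie below 0, while miR-25 over miR-93 runs from -1.11 for Hspb7 to 1.65 for Hspb3.

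Over the other chaperone lists with at least 3 tested genes, the median log2 fold change lay between -0.51 and 0.14. Of 20 genes for cytosolic HSP70, HSP110 and HSP90 proteins and their co-chaperones, 19 were tested after miR-106b, with 1 higher and 1 lower past 1.3-fold and a median of 0.14. With miR-93, 1 of 18 was higher and 2 were lower, and after miR-25, 3 of 19 were higher and 3 lower, at medians of 0.05 and -0.07. These counts were below the shares over all genes given above. Fkbp4, an HSP90 co-chaperone, was highest in the list after miR-93 at 0.77 and lowest after miR-25 at -0.62, and Hspa8, the constitutive HSP70 that works with Bag3, was at 0.04 after miR-106b, -0.18 after miR-93 and -0.47 after miR-25. The other genes named here were near either end once genes at 10 RPKM or less in a compared library were set aside. They were Hsp90aa1 at 0.31 and Ahsa1 at -0.22 after miR-106b, and St13 at 0.25 and Ahsa1 at -0.17 after miR-93. After miR-25 they were Hspa4 at -0.51, Cdc37 at 0.24 and Hsph1 at 0.23. With every tested gene of the list counted, the lowest value was -0.56 after miR-106b and -0.46 after miR-93. The highest after miR-25 was then 1.14. Hspa1a and Hspa1b, the heat-inducible HSP70 genes, were named after their values were seen and differ little in sequence, so that their reads may be split between them. Hspa1b was at 5.26 RPKM in the control, 5.26 after miR-106b, 3.82 after miR-93 and 11.6 after miR-25, and Hspa1a at 2.89, 2.91, 2.15 and 6.22.

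The heat shock factors, which switch on these genes under stress, were at low to moderate transcript levels. Hsf1 was at 4.93 RPKM in the control, 3.98 after miR-106b, 3.77 after miR-93 and 4.53 after miR-25, with log2 fold changes of -0.31, -0.39 and -0.12, of which the miR-93 value was just past 1.3-fold and within it when libraries were scaled to the reads on listed genes or a pseudocount of 0.1 was added without a filter. Hsf2 lay between -0.04 and 0.16, and Hsbp1, which encodes a binding protein of heat shock factor 1, between -0.09 and 0.13. Hsf4 was below 1.0 RPKM in all libraries and was not tested.

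Among the other BAG genes, Bag2, whose product inhibits CHIP, was the single one past the cutoff. It fell from 33.0 RPKM in the control to 17.2 after miR-106b and 13.3 after miR-93, a log2 fold change of -0.94 and -1.31, and was at 31.3 after miR-25, or -0.08. Bag1, Bag4, Bag5 and Bag6 lay between -0.21 and 0.33 with all 3 mimics. Of the other small heat shock protein genes looked up, Cryaa and Odf1 were not listed, Hspb9 was listed at 0 after miR-93 and in the control, and Hspb11, higher past 1.3-fold after miR-106b from 87 against 45 reads, was at 1.40 RPKM in the control and between 1.12 and 2.07 with the mimics.

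The 11 cytosolic DNAJ genes, whose products bring clients to HSP70, had medians near 0 after each mimic, at -0.011, -0.0078 and -0.08, and held a few large decreases. Dnajb5 was at 22.0 RPKM in the control, 10.3 after miR-106b, 4.08 after miR-93 and 19.8 after miR-25, and Dnaja4 at 56.8, 33.6, 22.7 and 51.7. Both were lower with the 2 mimics that share a seed and within 1.3-fold after miR-25, as Hspb3 and Bag2 were. Among the others, Dnajb4 was at -0.40 after miR-93 and 0.54 after miR-25, and Dnajc5 at 0.34 and -0.70. Dnaja1 was at 0.24 after miR-106b and 0.30 after miR-93, Dnajc7 at 0.31 after miR-106b and Dnajb6 at 0.29 after miR-25. In all, 2 of 11 were lower after miR-106b and 4 after miR-93, against 12.7% and 15.6% of all tested genes, and 2 lower and 2 higher after miR-25, no larger a share than the 22.6% and 19.3% of all tested genes.

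Mitochondrial chaperones and the chaperonin TRiC, which folds actin and tubulin, passed 1.3-fold after miR-25 only. With miR-25, 4 of 7 mitochondrial chaperones were lower past 1.3-fold, at a median of -0.45, led by Hspd1, the mitochondrial HSP60, at -0.77. So were 3 of 8 TRiC subunits, at a median of -0.31, with Cct7 at -0.66 and Tcp1 at -0.61. Of all tested genes, 22.6% were lower past 1.3-fold with this mimic. Hspa9, the mitochondrial HSP70, was at -0.53 after miR-25, while Trap1 at -0.27 and Dnaja3, Cct2 and Cct4 between -0.20 and -0.17 were within 1.3-fold. After miR-106b and miR-93, Cct3, Cct4, Cct5, Cct6a and Cct8 at the ends of the TRiC list lay between -0.38 and 0.11, and Trap1, Grpel1, Clpb and Dnaja3 of the mitochondrial list between -0.31 and 0.03. No gene of either list passed 1.3-fold after miR-106b or miR-93. Of all tested genes, 12.7% were lower and 11.9% higher after miR-106b, 15.6% and 15.1% after miR-93, and 22.6% and 19.3% after miR-25. Beside these shares, chaperones of the endoplasmic reticulum were lower in larger numbers after miR-93 and miR-25. Of 12 such chaperones, 1 was lower and 2 higher after miR-106b, 8 lower and 1 higher after miR-93, and 7 lower and 1 higher after miR-25. Dnajb9 was the lowest of them after each mimic, at -1.05, -1.36 and -1.27, Hspa5 reached -0.80 after miR-25, Hyou1 was at -0.60 after miR-93 and Pdia4 at -0.36 after miR-106b, Sdf2l1 was at 0.48 after miR-106b and 0.036 after miR-93, Dnajc3 at 0.018 after miR-25, and Canx was the highest, at 0.97, 0.78 and 1.11.

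**Figure D5:**
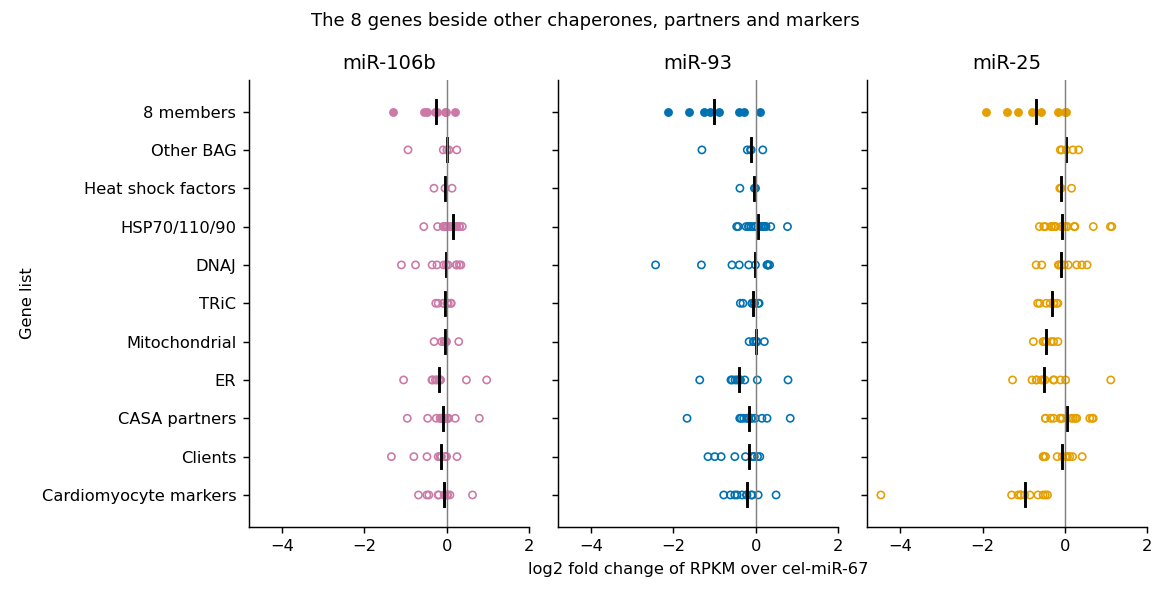
log2 fold change of RPKM over cel-miR-67 (x, 1 panel per mimic) of the 8 genes (filled points) and of the tested genes of other lists (open points), with a bar at each median; CASA stands for chaperone-assisted selective autophagy and ER for endoplasmic reticulum. The median of the 8 genes is -1.01 after miR-93, where the cardiomyocyte markers are at -0.22, and -0.69 after miR-25, where the markers are at -0.98.

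For the partners of the Bag3 complex the counts were near the shares over all genes. Of 14 genes of chaperone-assisted selective autophagy, 1 was higher and 2 lower after miR-106b and after miR-93, and 3 were higher and 2 lower after miR-25, where all tested genes gave 11.9% and 12.7%, 15.1% and 15.6%, and 19.3% and 22.6% higher and lower for the 3 mimics. Among genes of the list with RPKM above 10 in both libraries, Ywhab, a 14-3-3 protein, had the highest fold change after each mimic. It was at 41.0 RPKM in the control, 71.1 after miR-106b, 73.2 after miR-93 and 64.9 after miR-25. Over all tested genes of the list, the highest log2 fold change after miR-25 was 0.69, against 0.66 for Ywhab. Synpo2, whose product myopodin carries Bag3 to the autophagosome, was at 22.5 RPKM in the control, 11.6 after miR-106b, 7.07 after miR-93 and 16.2 after miR-25. Sqstm1, the autophagy receptor p62, was lower after miR-106b at -0.46, at -0.35 after miR-93, and higher after miR-25 at 0.60. Stub1, the gene of CHIP, lay between -0.27 and -0.01. Within 1.3-fold were also Map1lc3b at 0.21 after miR-106b, and Stx7 at 0.27 and Ywhag at -0.29 after miR-93.

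Of the client genes, Flnc, the muscle filamin, was at 60.4 RPKM in the control, 55.1 after miR-106b, 30.3 after miR-93 and 42.2 after miR-25. Des, the gene of desmin, was at 641 RPKM in the control, 460 after miR-106b, 358 after miR-93 and 858 after miR-25, so that it was lower past 1.3-fold with both mimics of the AAAGUGC seed and higher after miR-25, where Cryab was lower. Pdlim5, a Z-disc protein, followed the order of Des in the first 2 comparisons, at -0.80 and -1.16, and was at -0.06 after miR-25. Actn2, the Z-disc actinin, was at -0.53 after miR-25, Pdlim1 lay between 0.10 and 0.25 in the 3 comparisons, Ldb3 was at -0.0022 after miR-106b and Vim at 0.04 after miR-93. In counts, 3 of 11 client genes were lower after miR-106b, 4 of 10 after miR-93, and 4 of 11 after miR-25 with 1 higher. Of all tested genes, 12.7% were lower after miR-106b, 15.6% after miR-93, and 22.6% after miR-25 with 19.3% higher. Synm, named after its values were seen, had the lowest value of the client list after miR-106b, at -1.34. It was at 4.07 RPKM in the control, 1.61 after miR-106b, 0.721 after miR-93 and 4.26 after miR-25. Being below 1.0 RPKM after miR-93, it was not tested there.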

How the data were processed

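RNA of 4 cultures, 1 per mimic, was sequenced. As the methods and the submitters' processing notes state, the authors trimmed reads with Cutadapt, used STAR (2.7) for alignment to Rnor 6.0, and obtained RPKM from rounded counts per gene by the rpkm function of edgeR; the counting program is not given in the sources used here. Deposited RPKM values of 15731 genes were used, identical in the table of the series and in the files of each sample. Whole reads were recovered from their ratios between libraries as the smallest whole numbers that give whole gene lengths, and the procedure was tested on simulated data. The library sizes behind the RPKM values stood in the proportions of sizes scaled by the trimmed mean of M values (TMM, computed here from its definition) to within 0.0028 on the log2 scale, while listed genes held 60.4% to 66.9% of them. Fold changes used no pseudocount. Sequences came from RefSeq (GRCr8), matched by symbol.

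All 8 members and, of the longer chaperone lists, the 2 highest and 2 lowest genes per mimic with RPKM above 10 in both libraries were named, and the 3 short lists in full, with the 5 genes nearest in pattern to Cryab, Hspb1 and Bag3; genes named after their values were seen are marked as such. The members and lists were chosen with earlier results of these data known. Alternatives were other cutoffs, pseudocounts and scalings. Scripts ran in Python 3.11.15 using pandas 2.3.3, scipy 1.17.1, numpy 2.4.6 and, for figures, matplotlib 3.10.9.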

Additional observations from a re-analysis of the deposited data

How the results depend on the processing

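With 1 library per mimic the spread between cultures is unknown, and all intervals cover counting error only. Pseudocounts of 0.1 and 1 RPKM and centring on the median gene changed neither the sign nor the side of the 1.3-fold cutoff of any of the 24 fold changes over cel-miR-67, and moved them by at most 0.20. TMM factors moved no value by more than 0.0028, since the deposited values already stand in those proportions, and are no check. Scaling to the reads on listed genes raised all values by 0.08 with miR-106b and by 0.15 with miR-93 and with miR-25, and took Hspb1 with miR-93 to -0.27 and turned the signs of Hspb1 and Hspb7 with miR-106b, both within the cutoff. The number of members lower past the cutoff was 3 with miR-106b and 1 at 1.5-fold and 1 at 2-fold, and 5 with miR-25 and 3 at 2-fold. Of the 6 lower with miR-93, Hspb1 did not pass 1.5-fold, at 1.34-fold lower, and Bag3 did not pass 2-fold, at 1.85-fold lower. Cryab with miR-25 was 1.49-fold lower and did not pass 1.5-fold. Bag3, at 6.91 RPKM in the control and less with the mimics, met no filter of RPKM above 10. Shares of all tested genes at 1.5-fold and 2-fold are not given here, so the counts at these cutoffs have no baseline. Subtracting the median cardiomyocyte marker, a count chosen after seeing the data, gave 2 lower and 4 higher with miR-25 in place of 5 and 0, under a shift that put 86.7% of all tested genes higher. It turned the sign of 10 of 24 values with miR-25, among them those of Hspb8 to 0.17 and Cryab to 0.40 over cel-miR-67, and of Hspb6 to 0.045, Hspb8 to 0.14 and Bag3 to 0.062 over miR-106b. The causes were not tested. No paired analysis was possible because each mimic has 1 library, and leaving out a library was not possible for the same reason.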

Other observations

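The genes whose 3 fold changes over cel-miR-67 were nearest to those of a member were looked up among genes with RPKM above 10 in all 4 libraries, by Euclidean distance on the log2 scale. The comparisons share the control library, so the distances describe these 4 libraries. For Cryab, 3 of 4044 genes lay within 0.25, Flnc at 0.176, Ehbp1l1 at 0.198 and Anxa5 at 0.205, followed by Lama4 and Idi1. Flnc, a client of the Bag3 complex, had log2 fold changes of -0.13 after miR-106b, -0.997 after miR-93 and -0.52 after miR-25. For Bag3, 5 of 4045 genes lay within 0.25, Tnnc1, Murc, Mt-nd6, Casq2 and Gpc1, at distances from 0.126 to 0.212. The counting intervals of Bag3, such as -1.39 to -0.89 after miR-25, are wide beside these distances, so the order of the genes is uncertain. Tnnc1 encodes cardiac troponin C, Murc a caveolar protein of muscle and Casq2 the calcium-binding protein of the cardiac sarcoplasmic reticulum, and their values after miR-25 were -1.14, -1.05 and -1.07. Mt-nd6 and Gpc1 were at -1.03 and -1.06 after miR-25. For Hspb1, 127 of 4044 genes lay within 0.25, with Slc20a1, Por, Dad1, Nip7 and Alg14 the nearest.

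Among the skeletal muscle markers, 3 genes above 1 RPKM in at least 1 library were found, and their levels differed between libraries. Acta1, skeletal alpha-actin, was at 587 RPKM in the control, 471 after miR-106b, 169.9 after miR-93 and 738 after miR-25. Ckm, the muscle creatine kinase, was at 149.9 RPKM in the control, 142 after miR-106b, 221 after miR-93 and 28.2 after miR-25. Myh3, the embryonic myosin heavy chain, was at 0.541 RPKM in the control, 2.68 after miR-106b, 0.170 after miR-93 and 3.38 after miR-25, from 74, 482, 28 and 556 reads. Myog, Myod1 and Tnni2 were not listed, and Tnnt3 and Myh8 were listed at 0 in 1 library each.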
